A study of Mus musculus with 12 samples.

Results

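The heat shock and DNAJ chaperone genes were followed in CD115+ monocytes of the mouse spleen and peripheral blood, with and without partial removal of the liver. Members were all gene symbols that begin with Hsp, except Hspg2 (the basement membrane proteoglycan perlecan), or with Dnaj, and that had at least 10 counts in at least 3 of the 12 libraries. Of 74 such symbols, 66 met the limit (26 Hsp and 40 Dnaj genes) among 52553 gene features in all. The members nearest to the limit were Hspb9, Dnajb3 and Dnajb13, whose library at rank 3 held 14, 19 and 27 counts, and Hspb8 and Hspa12b with 28 and 33. Just outside it were Hspb2, Dnajb7, Hspb7 and Dnajb8, with 8, 7, 5 and 1 counts in that library, while Dnajc22, Dnajc5b, Dnajc5g and Hspb3 had 0 there.

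The 12 libraries formed 4 groups of 3. Cells came from male C57BL/6 mice with the spleen in place, which were either intact or had 70% of the liver resected 24 h earlier, and each library held cells pooled from 5 mice. The intact group had no operation named in the labels, so surgery and the loss of liver tissue cannot be told apart. CD115 is the receptor encoded by Csf1r, and cells carrying it were drawn with magnetic beads from mononuclear cells that had been separated on a density gradient. The spleen was also disaggregated, treated with collagenase and freed of red cells by lysis, and blood was not, so tissue and isolation procedure cannot be told apart in any comparison of blood with spleen. The ages of the mice are not given in the sources used here. Nothing says which libraries came from separate isolations, so p-values measure only the spread between these pools.

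Chaperones keep proteins folded. HSP70 proteins grip and release unfolded stretches of polypeptide in a cycle driven by ATP, DNAJ proteins (also called J proteins or HSP40) bring them their clients and start the cycle, and HSP110 proteins reset it by exchanging the nucleotide. HSP90 proteins act later and bring kinases, steroid receptors and other clients to their active form, while small heat shock proteins hold unfolded proteins without using ATP. The cytosolic inducible genes, among them Hspa1a, Hspa1b, Dnajb1 and Hsph1, are switched on by heat shock factor 1 at heat shock elements, and they are known to react within minutes to heat, oxidants and handling of cells. The endoplasmic reticulum (ER) has its own set, led by Hspa5 (BiP) and Hsp90b1 (GRP94), which serves secreted and membrane proteins and answers to the unfolded protein response through ATF6 and XBP1.

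Promoters were searched for the elements that these sets are known for, since the called members of the cytosol and of the ER mostly went in opposite directions in blood after resection. RefSeq promoter windows on GRCm38.p6, running from 250 bases before to 50 after an annotated start, were at hand for 55 of the 66 members. The ER stress response element, searched on both strands as CCAAT and CCACG with 9 bases of any kind between them, occurred in the windows of 3 members (Hspa5, Hsp90b1 and Dnajc3). It occurred in 0.1187% of all 32851 windows and 0.1369% of all genes searched. The 3 promoters below are given 5′ to 3′ on the strand of the gene up to the base before the start, with each match in capitals. In Hspa5 (chr2:34771840-34772089, plus strand) the match began 65 bases before the start, in Hsp90b1 (chr10:86705445-86705694, minus strand) 1 match began 212 and another 107 bases before it, and in Dnajc3 (chr14:118937682-118937931, plus strand) it began 105 bases before it.
Hspa5: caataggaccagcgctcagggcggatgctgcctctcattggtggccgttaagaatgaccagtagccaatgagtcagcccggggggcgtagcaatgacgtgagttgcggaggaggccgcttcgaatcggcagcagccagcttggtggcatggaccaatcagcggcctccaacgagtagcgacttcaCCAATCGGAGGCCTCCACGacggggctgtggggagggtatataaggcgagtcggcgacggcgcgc
Hsp90b1: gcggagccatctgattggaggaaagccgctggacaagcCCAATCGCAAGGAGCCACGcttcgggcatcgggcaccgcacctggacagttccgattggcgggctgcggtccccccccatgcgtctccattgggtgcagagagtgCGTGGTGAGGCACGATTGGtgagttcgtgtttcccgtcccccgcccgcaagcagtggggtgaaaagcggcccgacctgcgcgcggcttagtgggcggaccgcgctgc
Dnajc3: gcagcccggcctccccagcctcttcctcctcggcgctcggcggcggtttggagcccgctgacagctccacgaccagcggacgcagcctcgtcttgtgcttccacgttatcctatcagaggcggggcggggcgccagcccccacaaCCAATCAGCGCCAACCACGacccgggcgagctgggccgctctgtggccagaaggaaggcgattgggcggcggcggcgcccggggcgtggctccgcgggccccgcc

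Heat shock elements are built from GAA units in alternating orientation. The 3-unit form, searched on both strands as GAA, TTC and GAA with 2 bases of any kind between neighbours, occurred in the windows of 4 members (Hsph1, Dnajb6, Hspd1 and Hspe1). It occurred in 0.6027% of all windows and 0.6623% of all genes searched. Hspd1 and Hspe1, the mitochondrial chaperonin and its lid, are known to share a bidirectional promoter. In Hsph1, an HSP110 gene, the match lay after the start, and 27 bases around it (chr5:149636281-149636307, minus strand) are shown with the match in capitals.
Hsph1: ctgcagaTTCTGGAAAGTTCtcctcag

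Paired units were less selective: GAANNTTC, which reads the same on both strands and lies inside each 3-unit match, occurred in 12 members and 7.86% of all windows (9.036% of genes), and TTCNNGAA in 6 members and 8.52% of windows (9.599% of genes). Hspa1a and Hspa1b, the inducible HSP70 genes, each held GAANNTTC 104 bases before the start. Their promoters (chr17:34972157-34972406 and chr17:34959239-34959488, both minus strand) had the same base at 247 of 250 positions (98.8%) and are printed because reads of these near-identical genes could also be split between them.
Hspa1a: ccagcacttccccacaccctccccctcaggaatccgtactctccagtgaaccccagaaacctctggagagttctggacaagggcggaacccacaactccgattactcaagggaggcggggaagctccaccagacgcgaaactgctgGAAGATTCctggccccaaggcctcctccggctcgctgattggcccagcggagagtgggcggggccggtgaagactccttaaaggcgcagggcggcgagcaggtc
Hspa1b: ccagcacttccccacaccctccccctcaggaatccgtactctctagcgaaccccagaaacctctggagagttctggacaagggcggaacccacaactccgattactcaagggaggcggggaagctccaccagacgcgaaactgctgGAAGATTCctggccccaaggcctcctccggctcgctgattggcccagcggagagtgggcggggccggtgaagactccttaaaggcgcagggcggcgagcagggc

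**Figure D1:**
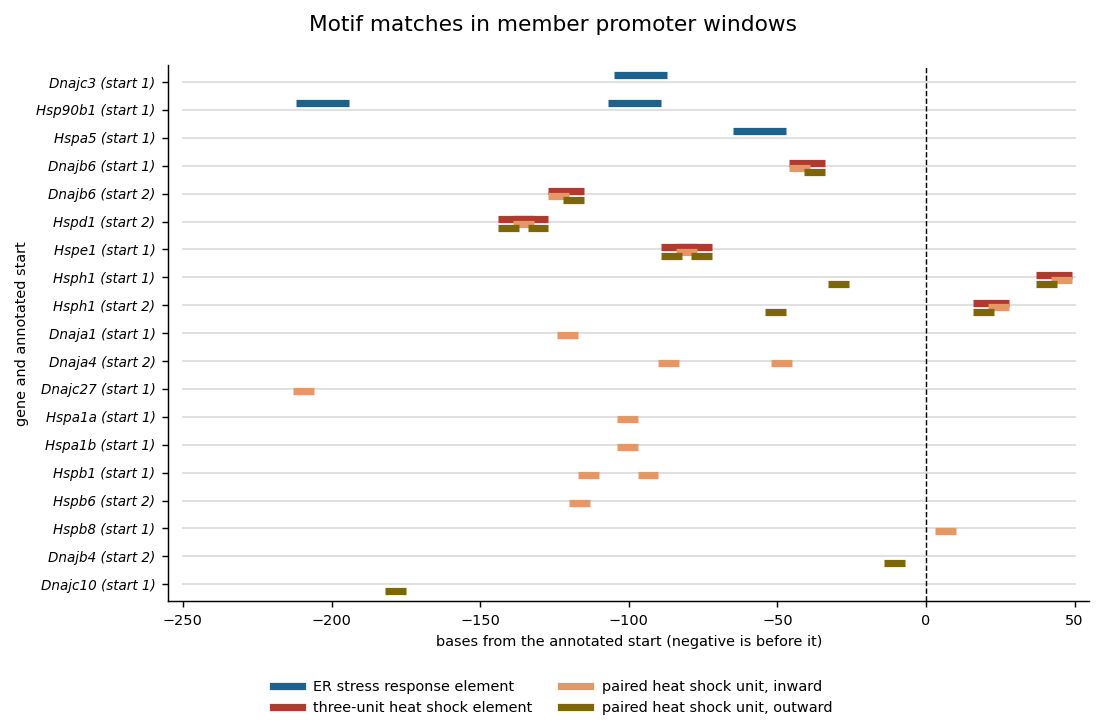
Matches to 4 motifs in the promoter windows of the members that held at least 1, by distance in bases from the annotated start (dashed line); a gene with several annotated starts has a row for each start with a match. The ER stress response element lies in 3 members and the 3-unit heat shock element in 4, and the paired units fall in further members.

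Libraries held 36990033 to 46401368 estimated counts, of which the members took 0.584% to 1.31% of the counts assigned to genes. Csf1r, the gene of the selected receptor, stood at 209 to 1192 normalised CPM in the 12 libraries (CPM are counts scaled to a library of equal size for every sample). Haemoglobin genes took 13.2% to 34.2% of gene counts in blood and 0.0814% to 3.47% in spleen. Over all features, library 3 of each group stood apart from the other 2. In library 3 of intact spleen, 9 of 66 members (13.6%) were over 2 times the next library of the group, among them Hspa1a, Hspa1b, Dnajb1, Hsph1, Dnaja1 and Hsp90aa1, against 5.96% of all features. In library 3 of intact blood, 5 members (7.58%) were over 2 times the next library, against 14.0% of all features, and 40 were the highest of their group (60.6%, against 43.0%). There, T cell markers summed to 2543 CPM against 884 and 816 CPM in the other 2, and proliferation markers to 2016 against 239.6 and 215 CPM. In library 3 of resected spleen and of resected blood 1 member each (1.52%) was over 2 times the next library, against 7.33% and 6.93% of all features, and neutrophil markers summed to 15164 CPM (against 5840.4 and 5604) and 19946 CPM (against 3862 and 4834). Counts are therefore also given without library 3 of both intact groups and without library 3 of both resected groups, alternatives chosen after the data were seen.

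Per length, the same 5 members led in every group. On the scale of CPM per kilobase of exon, Hsp90ab1, the constitutive cytosolic HSP90, led in 3 of the 4 groups, with 569 ± 69.4 (SD, n = 3) in intact spleen and 678 ± 233 in intact blood. Hspa8, the constitutive cytosolic HSP70, stood at 361 ± 9.17 and 413 ± 123 in these groups and led in resected blood with 366 ± 44.3, where it lay within the spread of Hspa5 (354 ± 78.6) and Hsp90ab1 (352 ± 61.4). Hsp90b1 and Hsp90aa1, the inducible cytosolic HSP90, completed the first 5. Hsph1 held position 7 in intact blood and position 35 in resected blood.

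**Figure D2:**
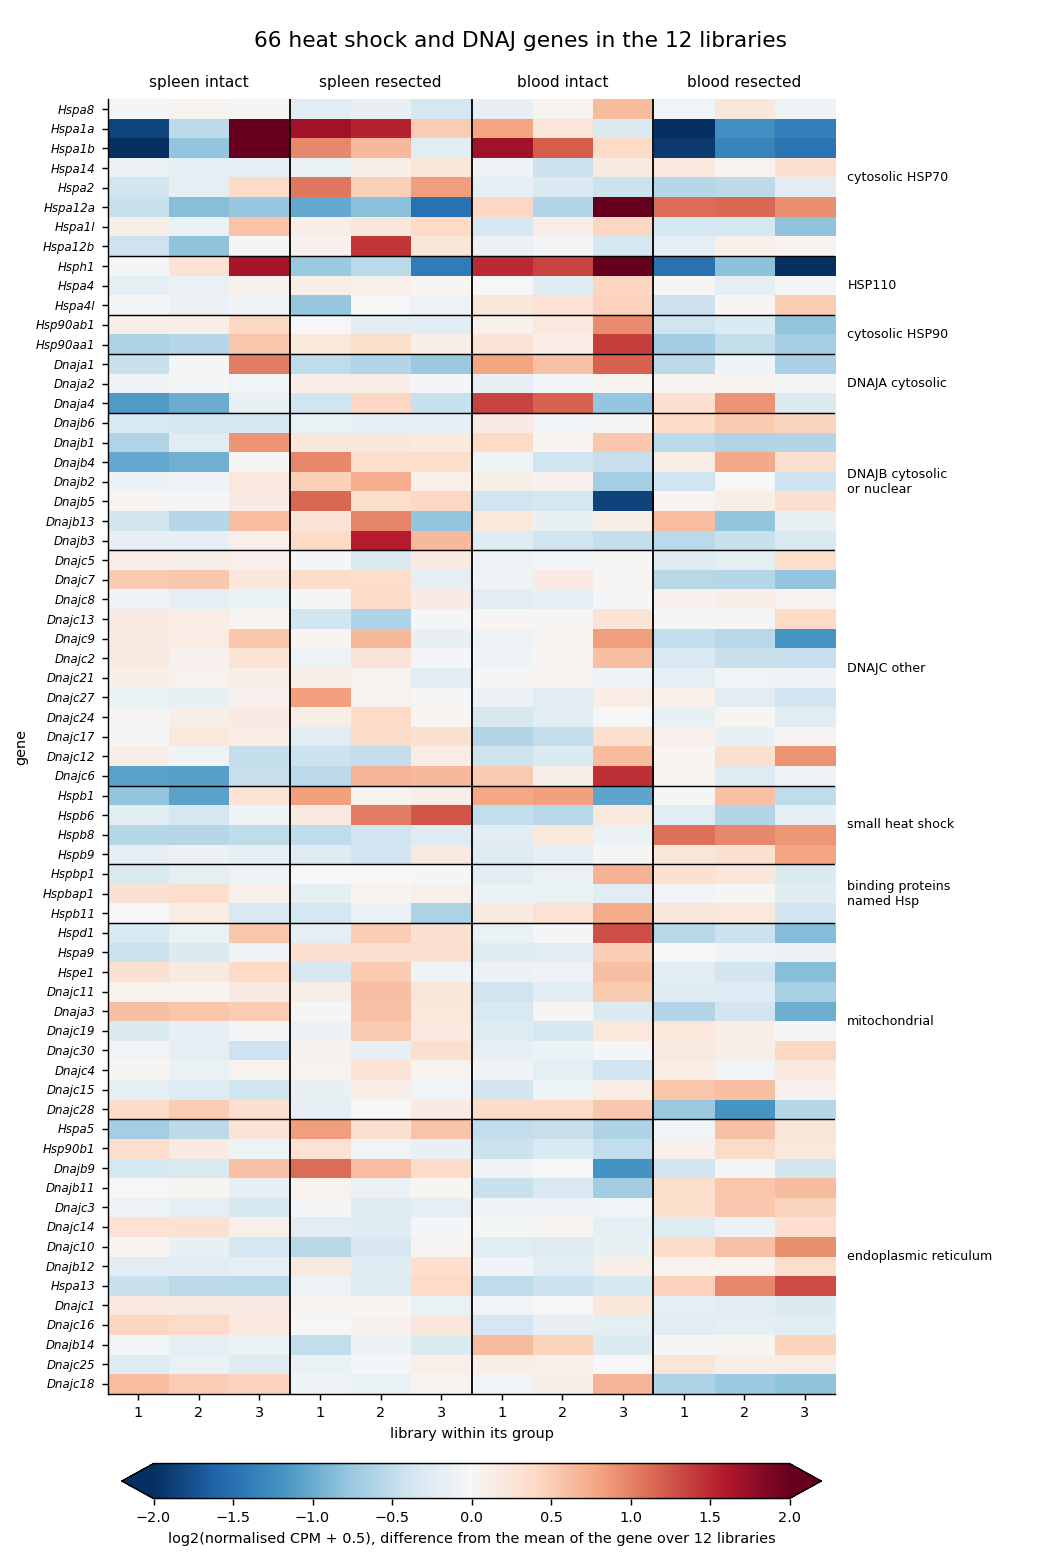
Levels of the 66 members in the 12 libraries, as log2(normalised CPM + 0.5) minus the mean of the gene over all libraries; members are grouped by role and ordered by mean level. Hspa1a and Hspa1b are high in library 3 of intact spleen and low in the 3 resected blood libraries. Hsph1 is highest in library 3 of intact blood and low in the resected libraries of both tissues.

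Liver resection and chaperone genes of blood monocytes were compared first. In resected blood Hsph1 was down 9.48-fold, Hsp90aa1 2.49-fold, Dnaja1 2.43-fold and Hsp90ab1 1.93-fold, while none of the 8 cytosolic HSP70 genes was called. Of the ER members, Hspa13 was up 2.60-fold, Dnajb11 2.00-fold, Dnajc10 1.81-fold, Hsp90b1 1.56-fold and Dnajc3 1.43-fold. In all, 15 of 66 members were called at an adjusted p under 0.05 (edgeR quasi-likelihood test, Benjamini-Hochberg over 20135 features), 6 of them higher and 9 lower. Of all features tested, 21.1% were called, 10.8% higher and 10.3% lower, so the share of members called was near that of all features. The median log2 fold change was -0.10 over the members and -0.10 over all features. By compartment, of 14 ER members 5 rose and 1 fell (median 0.16), and of the other 52 members 1 rose and 8 fell (median -0.15). Of all features 10.8% were called higher and 10.3% lower, and the median of the other 52 members was near the -0.10 of all features. Groups did not overlap for 33 members, against 38.4% of all features, and 27 members had an unadjusted p under 0.05, against 35.9%. With a limit on the absolute log2 fold change of 1 there were 8 members, against 13.9% of features. With library 3 of both intact groups left out 16 members were called, 6 higher and 10 lower, against 19.7% of features, and without library 3 of both resected groups 8, 4 higher and 4 lower, against 13.4%. In the latter fit Hsp90aa1, Hsp90ab1, Dnaja1, Dnajc9, Dnajc2, Dnajb6 and Hsp90b1 missed the threshold (adjusted p from 0.0593 for Hsp90b1 to 0.122 for Hsp90aa1).

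**Figure D3:**
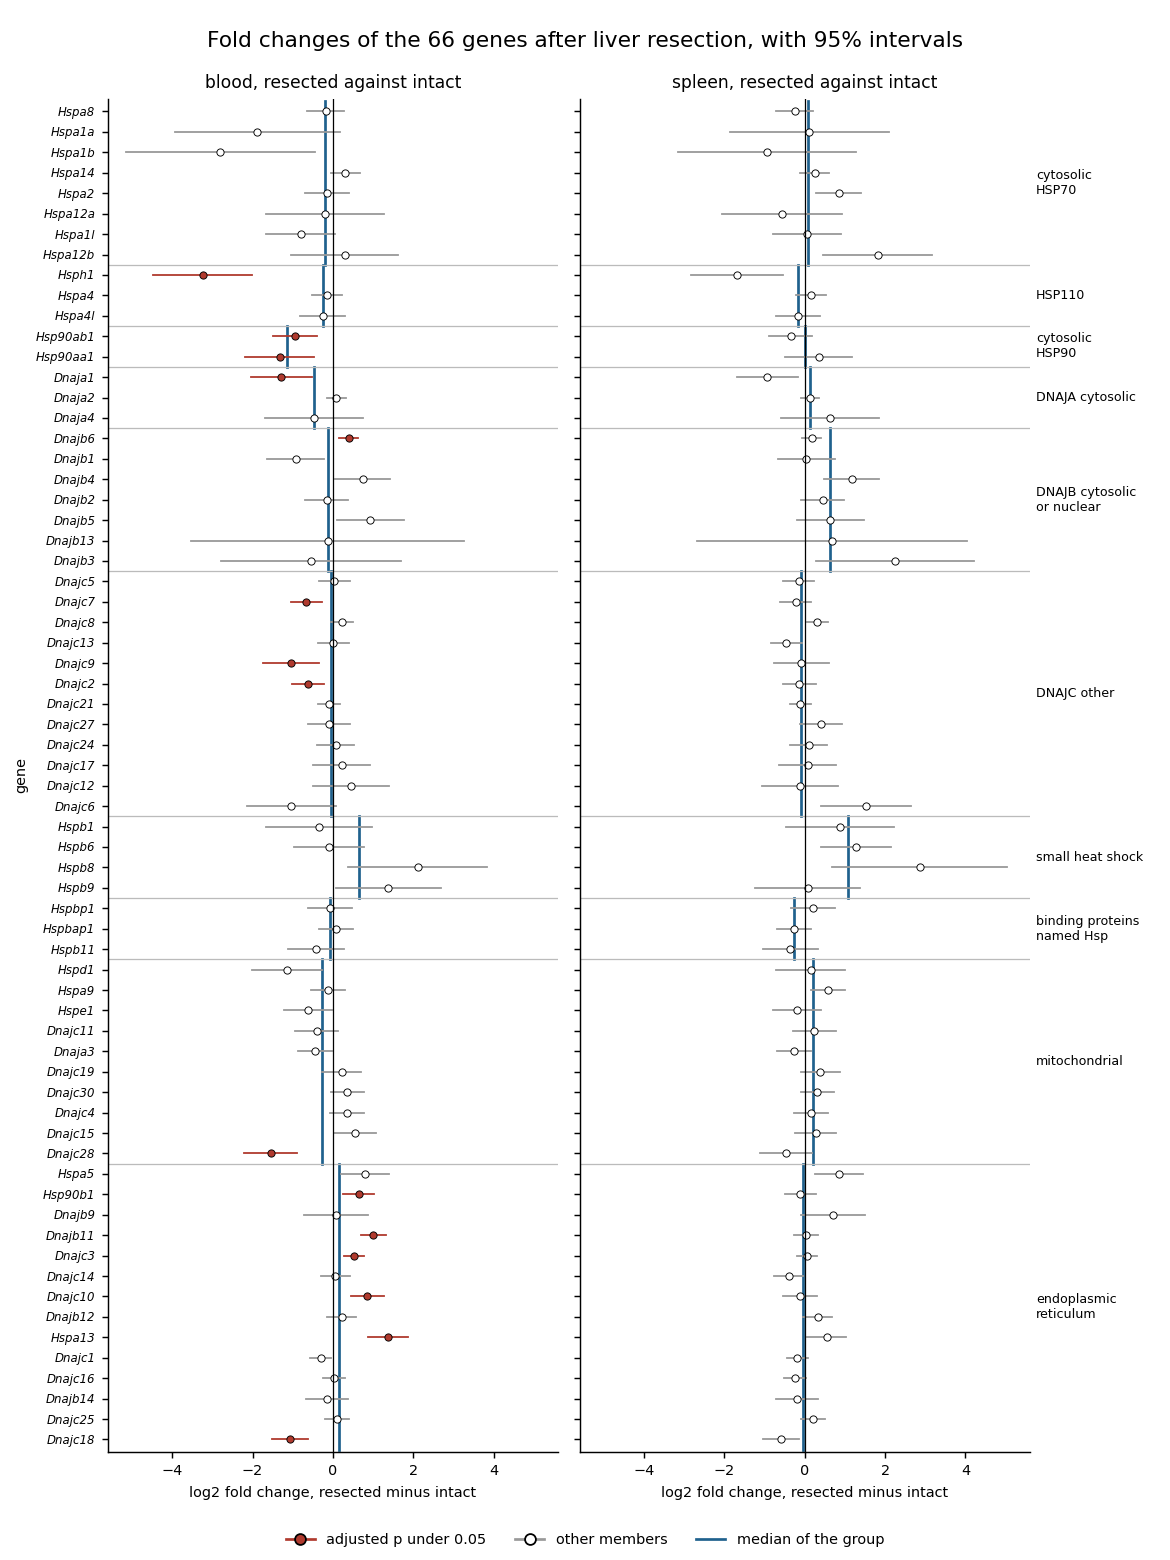
Log2 fold change of each member, resected minus intact, in blood (left) and spleen (right), with 95% intervals from edgeR; red marks an adjusted p under 0.05 and blue lines are medians of the role groups. In blood 5 of 14 ER members lie to the right in red and both cytosolic HSP90 genes and Hsph1 to the left, while no member of the spleen panel is red.

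Hsph1 had the largest change among the called members. Intact blood gave 281, 255 and 530.4 CPM and resected blood 34.9, 55.7 and 21.9 CPM. Every resected library was below every intact one, by a log2 fold change of -3.25 (SE 0.55, adjusted p = 0.00394). The other HSP110 genes did not pass the test: Hspa4 was at 157 ± 38.4 CPM in intact and 142 ± 10.5 CPM in resected blood (log2 fold change -0.15, 95% interval -0.53 to 0.23), and Hspa4l, the third HSP110 gene, was at 33.2 ± 2.90 and 27.7 ± 9.10 CPM.

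Both cytosolic HSP90 genes fell. Hsp90aa1 was at 613, 568 and 1338 CPM in intact and 316, 368 and 326 CPM in resected blood (log2 fold change -1.32, SE 0.39, adjusted p = 0.0361 by edgeR). Library 3 was the highest of the intact group, and without it the log2 fold change was -0.82 with an adjusted p of 0.0959. Hsp90ab1 was at 1561, 1707 and 2835 CPM in intact and 1116, 1202 and 849 CPM in resected blood, again with no overlap (log2 fold change -0.95, SE 0.25, adjusted p = 0.0228). Dnaja1, a J protein partner of cytosolic HSP70, went from 391, 339.7 and 512 to 156, 212 and 143 CPM (-1.28, SE 0.34, adjusted p = 0.0264). Hspa8, in contrast, differed by less than the spread between libraries, with 1370.4, 1591 and 2374 CPM in intact and 1465, 1793 and 1461 CPM in resected blood (log2 fold change -0.18, 95% interval -0.64 to 0.28), and its sign turned without intact library 3 (0.083).

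The 3 inducible genes Hspa1a, Hspa1b and Dnajb1 had lower levels in every resected blood library than in any intact one, but did not pass the threshold. Hspa1a was at 62.9, 42.5 and 29.4 CPM in intact and 7.90, 15.1 and 13.7 CPM in resected blood (log2 fold change -1.88, SE 0.93, adjusted p = 0.175 by edgeR). Hspa1b was at 105, 75.7 and 42.6 CPM in intact and 8.27, 12.5 and 11.3 CPM in resected libraries (-2.80, SE 1.06, adjusted p = 0.0871). Since the genes are near-identical copies and the counting could split shared reads between them, they were also tested as 1 sum, which gave -2.38 (SE 0.99, adjusted p = 0.114). Dnajb1, the J protein that works with inducible HSP70, was at 122, 95.7 and 135 CPM in intact and 63.4, 61.2 and 61.7 CPM in resected blood (-0.92, SE 0.32, adjusted p = 0.0656). All 4 groups share 1 estimate of the spread, and within intact spleen alone Hspa1a ranged from 9.68 to 219 CPM. In a fit on the 2 blood groups alone Hspa1a, Hspa1b and Dnajb1 passed the test (adjusted p = 0.0337, 0.0169 and 0.0300), as they did without intact spleen library 3, which is not in this comparison (0.0289, 0.00702 and 0.00691). Without intact blood library 3 none of them passed (0.179, 0.0914 and 0.134), and without library 3 of both intact groups all did (0.0241, 0.00585 and 0.00984). The fit on the 2 blood groups alone also lost calls of the main fit. These were Hsp90aa1, Hsp90ab1, Hsp90b1, Dnajc3, Dnajb6, Dnajc7, Dnajc18, Dnajc28, Dnajc9 and Dnajc2 (adjusted p by edgeR from 0.0530 for Dnajc28 to 0.151 for Dnajb6).

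**Figure D4:**
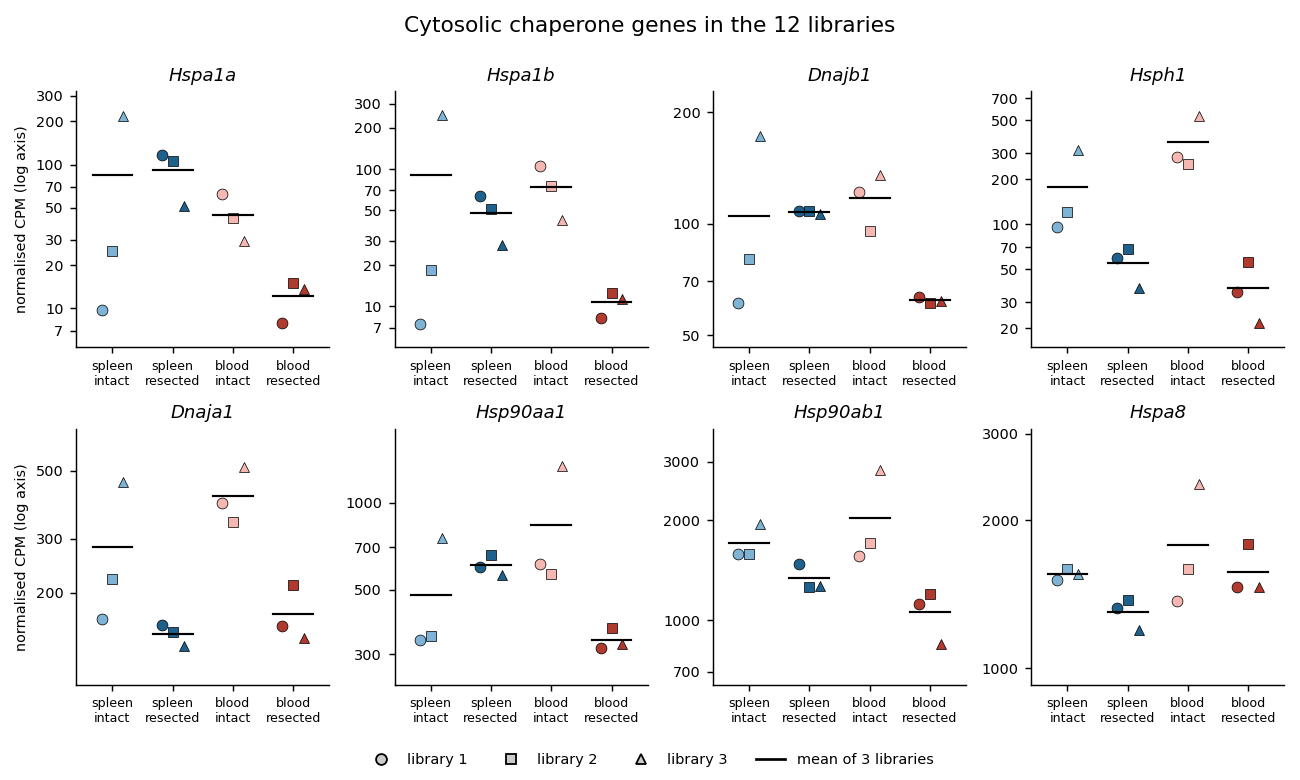
Normalised CPM (log axis) of 8 cytosolic members in each library, with a bar at the mean of each group of 3. In resected blood all libraries lie below all intact blood libraries for each gene shown except Hspa8, and library 3 of intact spleen is the highest of its group for each gene shown except Hspa8.

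Further J proteins of the cytosol and nucleus split by gene. Dnajc7, which binds both HSP70 and HSP90, fell from 153, 182 and 165 to 111, 109.6 and 94.5 CPM (log2 fold change -0.67, SE 0.17, adjusted p = 0.0227 by edgeR). Dnajc9, a histone chaperone, fell from 49.8, 55.2 and 96.1 to 37.8, 36.4 and 23.3 CPM (-1.04, SE 0.31, adjusted p = 0.0379). Dnajc2, which sits on ribosomes, fell from 43.3 ± 11.8 to 28.2 ± 1.68 CPM (-0.62, SE 0.18, adjusted p = 0.0381). Library 3 was the highest intact library for Dnajc9 and Dnajc2, and without it their log2 fold changes were -0.70 and -0.38 and neither passed the test. Dnajb6, which keeps aggregation-prone proteins soluble, rose from 154, 134 and 140.1 to 178, 199 and 188 CPM (0.40, SE 0.11, adjusted p = 0.0245) and was the only member outside the ER that was called higher in this comparison. Windows of Dnajb6 hold the 3-unit heat shock element, beginning 46 and 127 bases before the annotated starts, and the match in Hsph1 lies after the start. Hspd1 and Hspe1 also hold it before the start, and both had lower mean levels in resected than in intact blood. Any part of this element in these levels was not tested.

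In the ER, Dnajb11 (ERdj3), a J protein that binds clients together with BiP, had the smallest p of the members. It was at 87.1, 96.4 and 73.2 CPM in intact and 152, 176 and 186 CPM in resected blood (log2 fold change 1.00, SE 0.14, adjusted p = 0.00181 by edgeR). Hspa13, an ER-associated HSP70 that lacks the client-binding part, went from 26.3, 27.7 and 30.0 to 51.8, 73.1 and 93.5 CPM (1.38, SE 0.22, adjusted p = 0.00329). Dnajc10 (ERdj5), which reduces disulphide bonds of misfolded proteins, went from 67.0, 65.6 and 70.5 to 101, 118 and 149 CPM (0.86, SE 0.19, adjusted p = 0.0116). Resected and intact libraries did not overlap for any of these 3 genes.

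The 3 genes whose promoters are printed for the ER stress response element were Hsp90b1, Dnajc3 and Hspa5, and the first 2 rose. No match to this element was found for Dnajb11, Hspa13 or Dnajc10. Dnajc10 had a window, in which a paired heat shock unit was located. Since 11 of 66 members had no window, a missing match for Dnajb11 or Hspa13 can also mean that none was searched. The part of the element in these changes was not tested. Hsp90b1 was at 499, 547 and 476 CPM in intact and 724, 873 and 782 CPM in resected blood (log2 fold change 0.64, SE 0.17, adjusted p = 0.0262 by edgeR). Dnajc3 (P58IPK), a BiP partner, was at 99.8, 100.1 and 102 CPM in intact and 134, 154 and 144 CPM in resected libraries (0.52, SE 0.11, adjusted p = 0.0108). Hspa5 itself missed the threshold, with 875, 897 and 803 CPM in intact and 1185, 1847 and 1462 CPM in resected blood (0.80, SE 0.27, adjusted p = 0.0577), although no library overlapped, and DESeq2 gave it an adjusted p of 0.0103. Dnajb9 (ERdj4), a further target of the unfolded protein response, was at 109.5 ± 43.3 and 116 ± 17.4 CPM (log2 fold change 0.081, 95% interval -0.71 to 0.87). Dnajc18, a J protein anchored in the ER membrane, was the member of this set that fell, from 11.4, 13.0 and 19.3 to 7.54, 6.90 and 6.56 CPM (-1.06, SE 0.20, adjusted p = 0.00640).

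**Figure D5:**
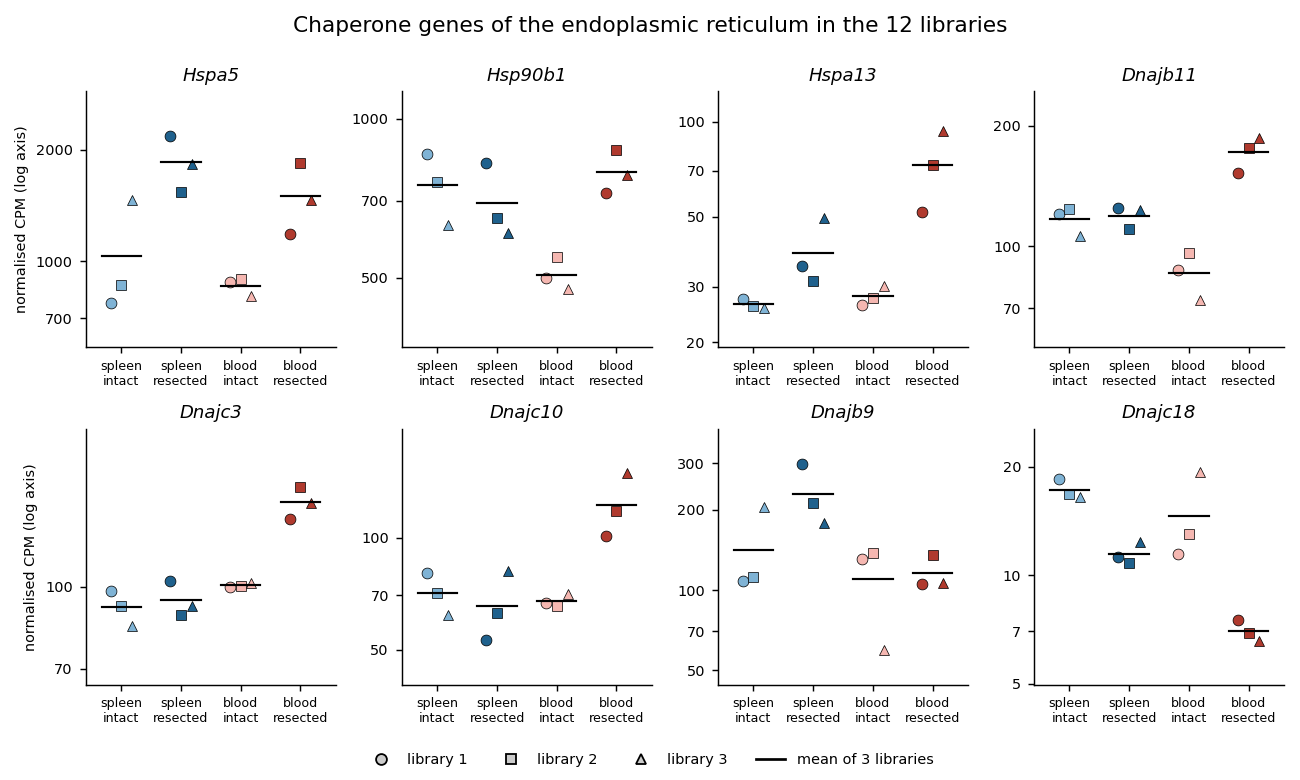
Normalised CPM (log axis) of 8 ER members in each library, with a bar at the mean of each group of 3. Hspa5, Hsp90b1, Hspa13, Dnajb11, Dnajc3 and Dnajc10 are higher in all resected than in all intact blood libraries, Dnajc18 is lower, and Dnajb9 overlaps.

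Among 10 mitochondrial members 1 was called. Dnajc28, a low-level member, fell from 3.41, 3.52 and 3.91 to 1.31, 0.849 and 1.55 CPM (log2 fold change -1.54, SE 0.30, adjusted p = 0.00655 by edgeR). Hspd1 (HSP60) was at 161, 172 and 429.7 CPM in intact and 119, 129.8 and 96.2 CPM in resected blood (-1.14, SE 0.39, adjusted p = 0.0632), and without intact library 3, its highest, the log2 fold change was -0.54. Its lid Hspe1 was at 63.0 ± 18.8 and 40.7 ± 9.05 CPM (-0.63, adjusted p = 0.122), and Hspa9 (mortalin) was at 185 ± 56.7 and 170.2 ± 7.77 CPM (-0.12, 95% interval -0.55 to 0.31). None of 4 small heat shock genes passed the test, with Hspb1 (HSP27) at 6.41 ± 3.80 and 5.04 ± 2.11 CPM (-0.35, 95% interval -1.68 to 0.98). Of 8 cytosolic HSP70 genes and 3 other genes named Hsp (Hspbp1, Hspbap1 and Hspb11) none was called either. The figures label these 3 as binding proteins, which does not hold for Hspb11. The 51 members not called had log2 fold changes from -2.80 (Hspa1b) to 2.11 (Hspb8, with 5, 14 and 8 counts in intact and 36, 28 and 31 in resected libraries).

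When each of the 12 libraries was left out in turn, the calls for Hsph1, Dnajb11, Hspa13, Dnajc3, Dnajc10, Dnajc18 and Dnajc28 held in every such fit, with adjusted p up to 0.0462 by edgeR. In the fit on the 2 blood groups alone Dnajc3, Dnajc18 and Dnajc28 missed the threshold (0.0711, 0.0606 and 0.0530). When a resected blood library was dropped, 9 members were called without the second and 7 without the third, where 11.5% and 11.7% of all features were called. The call for Hsp90ab1 was lost without resected blood library 3 (adjusted p = 0.0742). That for Dnaja1 was lost without resected blood library 1 or 3 or intact blood library 1 or 3 (0.0523 to 0.0973), and that for Dnajc7 without any of resected blood libraries 1 to 3 or intact blood libraries 1 and 2 (0.0510 to 0.102). Hsp90b1 was lost without resected blood library 2 or 3 or any intact blood library (0.0508 to 0.103). Dnajb6 was lost without resected blood library 2 or 3, intact blood library 2, or intact spleen library 1 or 2 (0.0521 to 0.1001). Hsp90aa1 was lost without any resected blood library, intact blood library 3, or resected spleen library 1 or 2 (0.0517 to 0.103). Dnajc2 was lost without any resected blood or intact spleen library or intact blood library 3 (0.0537 to 0.0980), and Dnajc9 without any of these or resected spleen library 1 (0.0501 to 0.125).

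Partners of the members outside the Hsp and Dnaj names were read from 6 lists. Of 24 ER folding and unfolded protein response genes 12 rose in resected blood and 0 fell (median log2 fold change 0.78, against -0.10 over all features). The smallest p belonged to Ppib (cyclophilin B, a proline isomerase of the ER), which went from 128, 137 and 133 to 277, 304 and 307 CPM (1.15, SE 0.11, adjusted p = 5.46e-04 by edgeR). Manf, a secreted protein retained by BiP, rose by 1.22 and Sdf2l1, which acts with Dnajb11, by 1.68 on the log2 scale (adjusted p = 6.70e-04 and 8.97e-04). Of 20 HSP90 cochaperones 3 rose and 5 fell (median -0.31). Those that fell first by p were Chordc1, Stip1 (HOP, which links HSP70 with HSP90) and Fkbp4, with log2 fold changes of -1.81, -1.53 and -1.35 (adjusted p = 0.00336, 0.00794 and 0.0127). The 3 that rose, Fnip2, Flcn and Fnip1, form the folliculin complex, which is also known for nutrient sensing at lysosomes, with 3.12, 0.88 and 1.19.

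Of 13 genes for HSP70 nucleotide exchange and quality control 2 rose and 1 fell in resected blood (median -0.039): Serpinh1, a collagen chaperone of the ER, by 2.14 and Grpel1, the mitochondrial exchange factor, by 0.34, and Bag4 with a log2 fold change of -0.69. No gene was called among 14 chaperonin and prefoldin genes (median -0.22), 10 mitochondrial chaperone and protease genes (median -0.063) or the 4 heat shock factor genes tested (median 0.033), while 0, 3 and 1 of them had an unadjusted p under 0.05. Hsf1, the factor that drives the inducible genes, was at 45.2, 50.02 and 44.1 CPM in intact and 34.5, 37.8 and 27.3 CPM in resected blood (-0.49, adjusted p = 0.0722 by edgeR).

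Markers of other cells moved with resection in blood, and in bulk libraries fewer cells of a type and less RNA per cell cannot be told apart. All 12 neutrophil markers rose, with sums of 144 to 526 CPM in intact and 3862 to 19946 CPM in resected libraries, as did 5 of 8 peritoneal macrophage markers (sums of 3942 to 8167 CPM in intact and 23057 to 32628 CPM in resected libraries) and 4 of 7 red pulp macrophage markers (sums of 90.2 to 377 CPM in intact and 1115 to 1428 CPM in resected libraries). Of 7 T cell markers tested 6 fell, with sums of 816 to 2543 CPM in intact and 143 to 294 CPM in resected libraries. Of 10 monocyte markers 3 rose and 2 fell (3727 to 9652 CPM in intact and 13126 to 15259.9 CPM in resected libraries). Plasma cells are rich in ER chaperones, and 4 of their 8 markers rose (sums of 204 to 312 CPM in intact and 359.7 to 403 CPM in resected libraries). Xbp1, which is also on the ER folding list, was at 124, 129 and 97.4 CPM in intact and 185, 195 and 212 CPM in resected blood. Jchain was at 4.05, 2.54 and 3.84 CPM in intact and 13.2, 12.6 and 11.0 CPM in resected blood, against 1862 to 4183 CPM in spleen. Sdc1 and Tnfrsf13b had lower means in resected blood (33.8 ± 7.55 against 20.8 ± 13.6 CPM, and 65.3 ± 19.2 against 57.6 ± 3.76 CPM), and no marker of the list was called lower. Immediate early genes, which react to handling, summed to 4578, 5344 and 1626 CPM in intact and 5786, 8115 and 5050.0 CPM in resected blood, with 3 of 11 called higher. The part of these shifts in the chaperone changes was not tested.

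In splenic monocytes the same comparison called 0 of 66 members by edgeR, where 2.05% of all features were called (1.02% higher, 1.03% lower). At an unadjusted p under 0.05 there were 16 members, 11 higher and 5 lower, against 20.8% of all features, 26 members did not overlap between the groups, against 35.1%, and DESeq2 called 11, 8 higher and 3 lower, against 13.8% of features. The median log2 fold change was 0.11 over the members and 0.050 over all features. Without library 3 of both intact groups 8 members were called, 7 higher and 1 lower, against 7.93% of features, and without library 3 of both resected groups 0, against 0.202%. Leaving out 1 library at a time gave 0 to 3 calls, with 3 without intact blood library 3, where 9.59% of features were called.

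Hspa5, the main HSP70 of the ER, was at 769, 859 and 1467 CPM in intact and 2188, 1539 and 1836 CPM in resected libraries, all resected above all intact (log2 fold change 0.85, SE 0.27, adjusted p = 0.115 by edgeR). Without library 3 of both intact groups its adjusted p was 0.0286. Its partner Hsp90b1 was at 858, 758 and 629 CPM in intact and 824, 648 and 609 CPM in resected libraries (-0.11, 95% interval -0.49 to 0.27), and Dnajb11 at 120.4, 124 and 106 CPM in intact and 125, 110.1 and 123 CPM in resected libraries (0.030, 95% interval -0.28 to 0.34). Dnajb4, a cytosolic J protein, had the smallest adjusted p of the members, with 23.0, 24.2 and 48.2 CPM in intact and 92.7, 60.8 and 60.4 CPM in resected spleen (1.16, SE 0.31, adjusted p = 0.0803). Hspa9 was at 132, 146 and 169 CPM in intact and 222, 219.9 and 226 CPM in resected libraries (0.58, adjusted p = 0.131), and Hspa2, an HSP70 known from the testis, at 7.39, 8.45 and 12.9 CPM in intact and 20.5, 13.6 and 17.5 CPM in resected libraries (0.84, adjusted p = 0.102).

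For the inducible genes the intact spleen libraries lay on both sides of the resected ones. Hspa1a was at 9.68, 25.03 and 219 CPM in intact and 116, 106 and 51.6 CPM in resected spleen, and Hspa1b at 7.49, 18.5 and 247 CPM in intact and 63.8, 51.3 and 27.8 CPM in resected libraries, so that 2 intact libraries lay below and library 3 above all resected ones. The fitted log2 fold changes were 0.11 and -0.94 (SE 0.89 and 0.99), and without intact library 3 they were 2.39 and 1.87 with neither passing the test, while without library 3 of both intact groups Hspa1a passed (2.39, adjusted p = 0.0403) and Hspa1b did not (adjusted p = 0.0544). Dnajb1 followed the same order, with 61.0, 80.2 and 173 CPM in intact and 108, 108 and 106 CPM in resected spleen (0.037, 95% interval -0.67 to 0.74). Hsph1 was at 96.3, 121 and 313 CPM in intact and 59.4, 68.2 and 37.4 CPM in resected libraries, all resected below all intact (-1.68, SE 0.52, adjusted p = 0.109 by edgeR). Dnaja1 was at 165, 222 and 459 CPM in intact and 158, 149.6 and 134 CPM in resected libraries, again without overlap (-0.94, adjusted p = 0.158), while the HSP90 genes were at 334, 347 and 756 CPM in intact and 598, 660.1 and 563 CPM in resected libraries (Hsp90aa1, 0.34) and 1585, 1584 and 1945 CPM in intact and 1476, 1257 and 1270.1 CPM in resected libraries (Hsp90ab1, -0.35). Immediate early genes summed to 9843, 10710.4 and 18937 CPM in intact spleen, highest in the same library 3, and to 19339, 21078 and 13039 CPM in resected spleen.

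Of the partner lists, 3 of 24 ER folding genes rose in resected spleen (median 0.33, against 0.050 over all features): Xbp1, the transcription factor of the unfolded protein response, went from 201, 189 and 207 to 352, 298 and 453 CPM (0.88, adjusted p = 0.0394 by edgeR), Manf by 0.63 and Atf4 by 1.02 on the log2 scale (adjusted p = 0.0402 and 0.0487). Among the cochaperones 1 of 20 fell, Cdc37l1, a relative of the kinase cochaperone Cdc37, with -0.84 (adjusted p = 0.0263), and the other 4 lists held no called gene, with 4 of 13 exchange and quality control genes and 0 of the rest at an unadjusted p under 0.05. Plasma cell markers summed to 2389.7 to 3280.1 CPM in intact and 4251 to 4904 CPM in resected spleen, and Xbp1 is on that list too. Sums of other markers shifted in resected spleen too, but few single genes were called: 2 of 12 neutrophil markers rose (1333 to 2428 CPM in intact and 5604 to 15164 CPM in resected libraries), as did 1 of 7 red pulp macrophage (1209.7 to 1821 and 2272 to 4564 CPM) and 1 of 8 plasma cell markers. None was called among erythroid (716 to 3374 and 7518 to 32779.7 CPM), proliferation (259 to 494 and 562 to 1298 CPM), T cell (192 to 344 and 90.2 to 141 CPM) and NK cell markers (85.5 to 179 and 12.6 to 49.2 CPM). Nor was any called among B cell markers (4968 to 5605 and 1385 to 4291 CPM), of which 8 of 8 had negative log2 fold changes. Monocyte markers (3297 to 3609 and 4239 to 4668 CPM) and dendritic cell markers (365 to 556 and 567 to 1457 CPM) held no call either. Of the 7 dendritic cell markers 6 had negative log2 fold changes. The part of these shifts in the levels of the chaperone genes was not tested.

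Whether resection acted differently in the 2 tissues was tested as the difference of the effects. No member passed by edgeR, where 0.283% of all features did (0.219% higher, 0.0646% lower), 12 members had an unadjusted p under 0.05, against 17.3% of features, and DESeq2 called 7, against 8.05%. The smallest adjusted p was that of Dnajb11, whose effect was 1.00 in blood and 0.030 in spleen (difference 0.97, SE 0.20, adjusted p = 0.0754). For Hsp90b1 the difference was 0.75 (adjusted p = 0.188) and for Hsp90aa1 -1.66 (adjusted p = 0.188). DESeq2 called all 3, with adjusted p of 1.25e-04, 0.0186 and 0.0333, and without library 3 of both intact groups edgeR called 3 members, against 0.312% of features, Hsp90aa1 among them (adjusted p = 0.0409). Hspa5, in contrast, had effects of 0.80 and 0.85, with a difference of -0.043 and a 95% interval of -0.88 to 0.80, and Hsph1 of -3.25 and -1.68 (difference -1.56, 95% interval -3.16 to 0.035). None of the 6 partner lists held a called gene either, with 12 of 24 ER folding genes above and 1 below at an unadjusted p under 0.05 (median difference 0.55, against -0.12 over all features). By edgeR on all libraries, then, no call made in blood was shown to differ from spleen, and for Dnajb11, Hsp90b1 and Hsp90aa1 this depended on the tool, for Hsp90aa1 on the libraries as well.

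Blood and splenic monocytes of intact mice differed in 4 of 66 members by edgeR, 2 higher and 2 lower in blood, where 9.17% of all features were called, 4.51% higher and 4.66% lower. With a limit on the absolute log2 fold change of 1 there were 2 members, against 7.35% of features. At an unadjusted p under 0.05 there were 11 members, against 25.3% of features, and 19 members did not overlap, against 34.5%. Dnajc6 (auxilin), which strips clathrin from vesicles, was at 0.926, 0.898 and 1.66 CPM in spleen and 3.80, 2.75 and 7.67 CPM in blood (log2 fold change 2.03, SE 0.51, adjusted p = 0.0370), and blood library 3 was the highest. Dnajc16, a J protein of the ER, was at 29.2, 28.4 and 24.8 CPM in spleen and 17.1, 19.3 and 19.0 CPM in blood libraries (-0.57, SE 0.12, adjusted p = 0.0211), and Dnaja3, the mitochondrial J protein of Hspa9, at 43.8, 42.3 and 41.2 CPM in spleen and 23.2, 29.3 and 23.6 CPM in blood libraries (-0.74, SE 0.19, adjusted p = 0.0394). These 3 genes did not overlap between the tissues. Hspb8, a small heat shock protein of selective autophagy, had 0, 0 and 1 counts in spleen and 5, 14 and 8 in blood, a ratio of pooled normalised counts of 31.8 with a 95% counting interval of 5.24 to 1301 that covers counting error only. Hspb8 reached 10 counts in blood libraries alone, so it met the member limit only through the tissue where it is high. Its ratio and its call therefore cannot test a difference between the tissues.

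Each of these 4 calls was lost without some single libraries: Hspb8 without intact spleen library 1 or 2, Dnajc6 in 7, Dnajc16 in 9 and Dnaja3 in 11 of 12 fits. Without 1 of the 12 libraries at a time the number of members called ranged from 0 to 5, where 2.65% to 9.31% of all features were called. The adjusted p by edgeR reached 0.131 for Dnajc6, 0.166 for Dnajc16 and 0.189 for Dnaja3, each without intact spleen library 1. With size factors in place of TMM, or with haemoglobin genes left out, 4 were called again but 3 higher and 1 lower, against 8.52% and 8.62% of features. Leaving out haemoglobin moved the median log2 fold change of all features from -0.019 to 0.097 between intact tissues and from -0.14 to -0.016 between resected tissues, which bears on small differences between tissues. Leaving out library 3 of both intact groups, 8 were called, 7 higher and 1 lower, against 6.32% of features, and without library 3 of both resected groups 2, against 8.30%. In the first of these Hspa1b stood at 2.90 (adjusted p = 0.0223) in place of -0.29, and Hspa1a at 1.70 in place of -0.91. With all libraries, none of the 13 key chaperones was called by edgeR, with log2 fold changes in blood against spleen of 0.17 for Dnajb1, -0.27 for Hspa5, -0.56 for Hsp90b1 and 1.01 for Hsph1. DESeq2 called Hsp90b1 lower in blood (-0.49, adjusted p = 0.0275). Of 24 ER folding genes 6 were lower in blood, led by Creld2 (-1.54), Atf6b (-0.68) and Syvn1 (-1.15), and of 13 exchange factor and quality control genes 2 were higher, Bag3 (2.28) and Bag1 (0.68). Among the cochaperones 1 of 20 was lower, Cdc37l1 (-0.52), and the other 3 lists held no called gene. Plasma cell markers summed to 2389.7 to 3280.1 CPM in spleen and 204 to 312 CPM in blood, and their part in the ER genes was not tested.

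After resection 14 of 66 members differed between blood and spleen, 7 higher and 7 lower in blood, where 19.1% of all features were called, 8.54% higher and 10.6% lower. At an unadjusted p under 0.05 there were 26 members, against 33.9% of features, 35 members did not overlap, against 42.4%, and 6 passed the limit of 1 on the absolute log2 fold change, against 13.2%. Of 14 ER members 4 were higher and 1 lower. Dnajc3 was at 103, 88.4 and 92.0 CPM in spleen and 134, 154 and 144 CPM in blood (log2 fold change 0.61, SE 0.11, adjusted p = 0.00593 by edgeR), and Dnajc10, Hspa13 and Dnajb11 were higher by 0.90, 0.92 and 0.52 (adjusted p = 0.0102, 0.0185 and 0.0272). Since both resected groups enter here and in the tests of resection, these values are not independent of those above. Hspa5 did not differ beyond its spread (-0.31, 95% interval -0.90 to 0.28), nor did Hsp90b1 (0.19, 95% interval -0.19 to 0.58), and Dnajc18 was lower in blood (-0.71, adjusted p = 0.0349).

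Outside the ER, Dnajb6 was at 126, 123 and 124 CPM in resected spleen and 178, 199 and 188 CPM in resected blood (0.60, SE 0.11, adjusted p = 0.00517 by edgeR), the smallest p of the members. Hspa12a, a distant relative of HSP70, was at 1.19, 1.42 and 0.713 CPM in spleen and 6.96, 7.07 and 6.05 CPM in blood libraries (2.59, adjusted p = 0.0299), and Hspb8 had 1, 3 and 5 counts in spleen against 36, 28 and 31 in blood (ratio 14.0, 95% counting interval 7.05 to 31.5). Lower in blood were Hspa2, at 20.5, 13.6 and 17.5 CPM in spleen and 6.29, 6.52 and 8.19 CPM in blood (-1.29, adjusted p = 0.00768), Dnajc7 (-0.84), Dnaja3 (-0.93), Hspb6 (-1.41) and Dnajc28 (-1.05), with adjusted p from 0.00955 to 0.0340. Dnajb3 had 19, 76 and 26 counts in spleen and 0, 1 and 3 in blood (ratio of spleen to blood 22.9, 95% counting interval 8.70 to 85.3). Dnajb3 reached 10 counts in 4 libraries, all of spleen, and Hspb8 in 4, all of blood. Each met the member limit only through the tissue where it is high. Their ratios, and their places among the called members, therefore cannot test a difference between the tissues.

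Hspa1a, at 116, 106 and 51.6 CPM in resected spleen and 7.90, 15.1 and 13.7 CPM in resected blood, did not overlap between the tissues (-2.90, SE 0.96, adjusted p = 0.0607 by edgeR), and Hspa1b gave -2.16 (adjusted p = 0.173), Dnajb1 -0.79 (0.111) and Hsph1 -0.55 (0.483). The spread of these genes among intact spleen libraries enters this test through the shared fit, and without library 3 of both intact groups 26 members were called, 9 higher and 17 lower, against 26.9% of features, with Hspa1a (adjusted p = 0.00542), Hspa1b (0.0104) and Dnajb1 (0.00822) among the lower ones. With library 3 of both resected groups left out 9 were called, 6 higher and 3 lower, against 11.9%. When each library was left out in turn, Dnajb6, Dnajc3, Dnajc10 and Hspa2 held in all 12 fits. Hspb8 and Hspa13 were lost without resected spleen library 1 or 2, Dnajb3 without resected spleen or resected blood library 2, Dnaja3 and Dnajb11 in 3 fits each, all without a resected library, Dnajc7 in 4, Hspa12a in 6, Hspb6 in 9, Dnajc18 in 10 and Dnajc28 in 11. The number of members called ranged from 4, without resected spleen library 2, to 21, without intact blood library 3, where 8.84% and 28.4% of all features were called. Of 24 ER folding genes 6 were higher in blood, with Pdia3, Ppib and P4hb first (1.06, 0.80 and 1.40), and 4 lower, with Xbp1, Ddit3 and Creld2 first (-0.90, -2.04 and -0.79). Of 13 exchange and quality control genes 4 were higher and 2 lower, with Serpinh1 (3.11) and Bag2 (-3.93) at the ends. Of 20 cochaperones 2 were higher, St13, a cofactor of HSP70 (0.64), and Fnip1 (0.79), and of 10 mitochondrial genes 1 was lower, Clpx (-0.57). Plasma cell markers, Xbp1 among them, summed to 4251 to 4904 CPM in resected spleen and 359.7 to 403 CPM in resected blood (7 of 8 lower in blood), red pulp macrophage markers to 2272 to 4564 and 1115 to 1428 CPM (5 of 7 lower) and peritoneal macrophage markers to 373 to 2657 and 23057 to 32628 CPM (7 of 8 higher). All 7 platelet markers were higher in blood, and of 11 immediate early genes 1 was higher and 5 lower. Their part in the chaperone differences was not tested.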

How the data were processed

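Estimated counts, deposited by the authors as 1 column per library without normalisation, were analysed from 12 libraries. Per the labels a strand-specific mRNA library was sequenced on a DNBSEQ instrument, and the submitters' processing notes name STAR and GRCm39. The counting tool, its annotation and its use of strand are not given in the sources used here. Each library lists 67088 entries: 24256 gene symbols, 40274 transcript accessions, of which 25340 were matched to symbols through the RefSeq gene table of GRCm38.p6, and 2558 unassigned entries (1.75% to 4.33% of counts), which were left out. Entries were summed per gene and rounded.

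A quasi-likelihood model with robust dispersions and TMM factors was fitted to all 12 libraries in edgeR 4.0.16 (R 4.3.3) after its default filter on low counts, which all 66 members passed. Adjusted p-values are Benjamini-Hochberg values over 20135 features, and fold changes and CPM use TMM factors. Named genes were 13 key chaperones, up to 8 called members a direction with the smallest p and a mean of at least 50 counts, not normalised, in a compared group, and up to 3 called list genes a direction. Exceptions named after their values were seen are Hspa4l, Hspa9, Dnajb9, Dnajc2, Hspb8 in blood, the members shown for spleen, and Hsf1. Members, roles and lists were chosen with earlier results of these data known. The promoter motifs and the lengths (GENCODE M21 exon unions) come from another build than the counts, and sequences are credited to RefSeq. Alternatives were RLE size factors, no filter, DESeq2 1.42.0, symbol entries only, haemoglobin left out, a replicate block, no robust step, single comparisons, a fold limit each library left out, and library 3 of both intact or of both resected groups left out. Library totals of 36990033 to 46401368 set the precision, and counting intervals cover counting error only.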

Additional observations from a re-analysis of the deposited data

How the results depend on the processing

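Of 1557 values recomputed under alternatives for 71 named log2 fold changes, 1303 kept their direction and their side of the threshold, 51 passed it in addition, 172 no longer passed it and 31 changed sign, and the cause was not tested. With DESeq2, 23 members were called in blood after resection (10 higher, 13 lower), 11 in spleen, 9 between intact tissues and 7 for the difference of the effects, where 30.4%, 13.8%, 18.3% and 8.05% of all features were called. Fits on only the 2 groups compared called 8 in blood (11.0% of features) and 1 between intact tissues (4.90%). An added limit on the absolute log2 fold change of 1 left 8 in blood, 2 between intact tissues and 6 between resected tissues, and without the low-count filter 2 were called between intact tissues (3.71% of features). Without library 3 of both intact groups the counts were 8 in spleen, 8 between intact tissues, 26 between resected tissues and 3 for the difference. Without library 3 of both resected groups they were 8 in blood, 2 between intact tissues and 9 between resected tissues, and no sign turned. Without library 3 of both intact groups, signs turned for Hspa8 (0.082) and Hspa4 (0.052) in blood, Hspa1b (1.87) and Dnajb11 (-0.040) in spleen, and Hspa1a (1.70), Hspa1b (2.90) and Hspa5 (0.22) between intact tissues.

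With 1 library left out at a time, the number of members called was 7 to 17 in blood, 0 to 3 in spleen, 0 to 5 between intact tissues, 4 to 21 between resected tissues and 0 for the difference in every fit. Over the same fits 11.5% to 21.6% of all features were called in blood and 0.00473% to 9.59% in spleen. Between intact tissues the share was 2.65% to 9.31%, between resected tissues 8.84% to 28.4%, and for the difference 0.0236% to 0.447%. Log2 fold changes crossed 0 for Hspa8 (-0.28 to 0.083) and Hspa4 (-0.26 to 0.052) in blood, for Hspa1a (-0.41 to 2.39), Hspa1b (-1.47 to 1.87), Dnajb1 (-0.24 to 0.60) and Dnajb11 (-0.040 to 0.083) in spleen, for Hspa1a (-1.33 to 1.47), Hspa1b (-0.73 to 2.61), Dnajb1 (-0.0024 to 0.83) and Hspa5 (-0.34 to 0.17) between intact tissues, and for Hspa5 in the difference (-0.38 to 0.13).

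Over 18 pairs of same-numbered libraries the deviations from the group means correlated between -0.05 and 0.19, with 2 pairs over 0.1. Both of these joined resected spleen with resected blood (0.042, 0.131 and 0.189 for libraries 1 to 3). Intact spleen and intact blood gave 0.0002 to 0.051. The sources used here do not say whether spleen and blood libraries of the same number shared mice, so pairing between the tissues was not settled. With the replicate number as a block, 12 members were called in blood (6 higher, 6 lower), 0 in spleen, 4 between intact tissues, 11 between resected tissues and 0 for the difference. Of all features, 16.7%, 0.954%, 7.05%, 16.1% and 0.00497% were called in these comparisons. In the same fit Hspa1b between intact tissues turned to 0.27. Low counts limit Hspb8, Hspb9 and Dnajb3, and the split of counts between Hspa1a and Hspa1b is uncertain.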
